A study of Mus musculus with 6 samples.

Results

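The whey acidic protein (WAP) family is described here in liver through 7 genes: Wfdc21, Wfdc17, Slpi, Wfdc2, Wfdc15b, Wfdc1 and Wfdc3. Every probe set of the array that the platform annotation pairs with one of these symbols was taken, which gave 8 probe sets of 45037, and the 7 genes stand among 18193 genes tested. Wfdc21 (earlier called 1100001G20Rik) was chosen for its large difference between the strains. Its own strain difference is therefore given as a description without a test. The other 6 are part of the family by name and were listed with earlier results of these data known. Liver RNA was measured in 6 untreated female mice aged 8 weeks, 3 of the inbred strain NZB/BinJ (NZB) and 3 of the inbred strain SM/J (SM), with 1 array per mouse, labelled as biological replicates. All the mice were weaned at 3 weeks, ate chow and were fasted for 4 hours at the end, and the perfusion before the livers were frozen used 50 mL of saline, so the strains differ by their whole inbred genomes and not by a single allele. The values are log2 expression from RMA, a method that corrects background and normalizes arrays before it joins probes into probe sets, and "higher" or "lower" is written of a gene whose adjusted p in limma was under 0.05.

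Proteins of this family are small and secreted. They carry the WFDC domain, a compact fold held together by disulphide bonds between conserved cysteines. The best known members block serine proteases or act against bacteria, and several are made by epithelia, neutrophils and macrophages at sites of inflammation. In mouse the genes lie mostly in a cluster on chromosome 2, with a smaller group on chromosome 11 beside genes for chemokines of the CCL class.

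Of the arrays, SM replicate 2 stood apart in Xist, the RNA of the inactive X chromosome, at 12.66, 12.63 and 12.61 in the NZB arrays and 12.84, 7.32 and 12.91 in the SM arrays. The other Xist probe sets read 4.62 and 4.96 on SM replicate 2, and between 7.92 and 11.04 on the other arrays. The label of SM replicate 2 gives a female mouse, and the cause of its low Xist readings was not tested. Probe sets for Y-linked genes read at most 5.67 on all 6 arrays, and this reading is used below as a background level. The array medians lay between 6.60 and 6.66. The hepatocyte markers measured, 6 in number and including the albumin gene Alb and the transthyretin gene Ttr, did not pass limma's test in either direction (1 at an unadjusted p under 0.05, as were 34.5% of all genes tested), and 1 of them was higher with trended and robust variances or with the mean of a gene's probe sets. Alb read 14.9 on NZB replicate 1, the highest value deposited. Bright probe sets can saturate, so a difference in these markers could be missed.

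Upstream windows are printed for the members that were higher in NZB, Wfdc17, Wfdc2 and Slpi, so that their letters can be set side by side. RefSeq (build GRCm38.p6) gave a window for 5 of the 7 genes, and none was at hand for Wfdc21 or Wfdc1. Wfdc2 had 2 entries, of which only the first listed was printed and searched. Each run is the 250 bases before the annotated start, read 5′ to 3′ on the gene's own strand. The windows were searched on both strands for the TATA box (TATAAA), the STAT motif (TTCNNNGAA) and a broad C/EBP motif (TTNNGNAA), and capitals mark the matches.
Wfdc17, chr11:83703806-83704055, plus strand: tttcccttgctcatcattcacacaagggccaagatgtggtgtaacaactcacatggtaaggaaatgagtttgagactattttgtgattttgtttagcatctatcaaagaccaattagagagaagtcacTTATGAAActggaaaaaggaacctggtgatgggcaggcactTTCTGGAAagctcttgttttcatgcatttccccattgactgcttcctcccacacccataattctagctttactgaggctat
Wfdc2, chr2:164562465-164562714, plus strand: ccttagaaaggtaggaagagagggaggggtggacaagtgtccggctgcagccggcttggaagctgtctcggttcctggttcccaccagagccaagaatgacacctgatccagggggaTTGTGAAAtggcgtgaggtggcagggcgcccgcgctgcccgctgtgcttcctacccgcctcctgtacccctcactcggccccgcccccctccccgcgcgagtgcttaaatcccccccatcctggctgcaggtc
Slpi, chr2:164356508-164356757, minus strand: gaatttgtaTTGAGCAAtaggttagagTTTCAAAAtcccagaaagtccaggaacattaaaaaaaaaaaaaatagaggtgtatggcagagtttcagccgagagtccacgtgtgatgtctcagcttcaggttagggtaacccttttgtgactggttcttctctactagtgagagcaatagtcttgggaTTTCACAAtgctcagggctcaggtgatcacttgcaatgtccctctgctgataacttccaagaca
The C/EBP motif had 2 matches in Wfdc17, 1 in Wfdc2 and 3 in Slpi, and 36.8% of all 32851 promoter windows of this length held at least 1. The TATA box and the STAT motif had 0 matches in these windows, against 12.4% and 7.02% of all windows. No marked match overlapped another. The Wfdc2 window was 64.8% G and C, the Wfdc17 window 41.2% and the Slpi window 42.0%. A match is a stretch of letters and was not tested for binding.

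Wfdc21 encodes a small secreted WAP protein known in mouse as a product of fat cells. It read 7.69, 8.44 and 8.11 in the NZB livers and 13.27, 13.31 and 13.22 in the SM livers. The strains were far apart: the highest NZB array lay 4.78 log2 units under the lowest SM array. The mean was 8.08 ± 0.38 in NZB and 13.27 ± 0.04 in SM (SD, n = 3 each), a log2 difference of -5.19 or 36.5-fold. By size this difference ranked 3 among the 18193 genes tested, which restates how the gene was chosen. All NZB readings lay above 5.67, the highest reading of the probe sets for Y-linked genes. The background of the Wfdc21 probe set itself was not measured, so how much of its NZB reading is signal is not shown. The NZB arrays differed among themselves by up to 1.69-fold and the SM arrays by up to 1.06-fold. By its SD over the NZB arrays, Wfdc21 ranked 120 among the genes tested. The array has 1 probe set for Wfdc21, so no second probe set reads it. Strain variants under its probes were not analysed here.

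**Figure D1:**
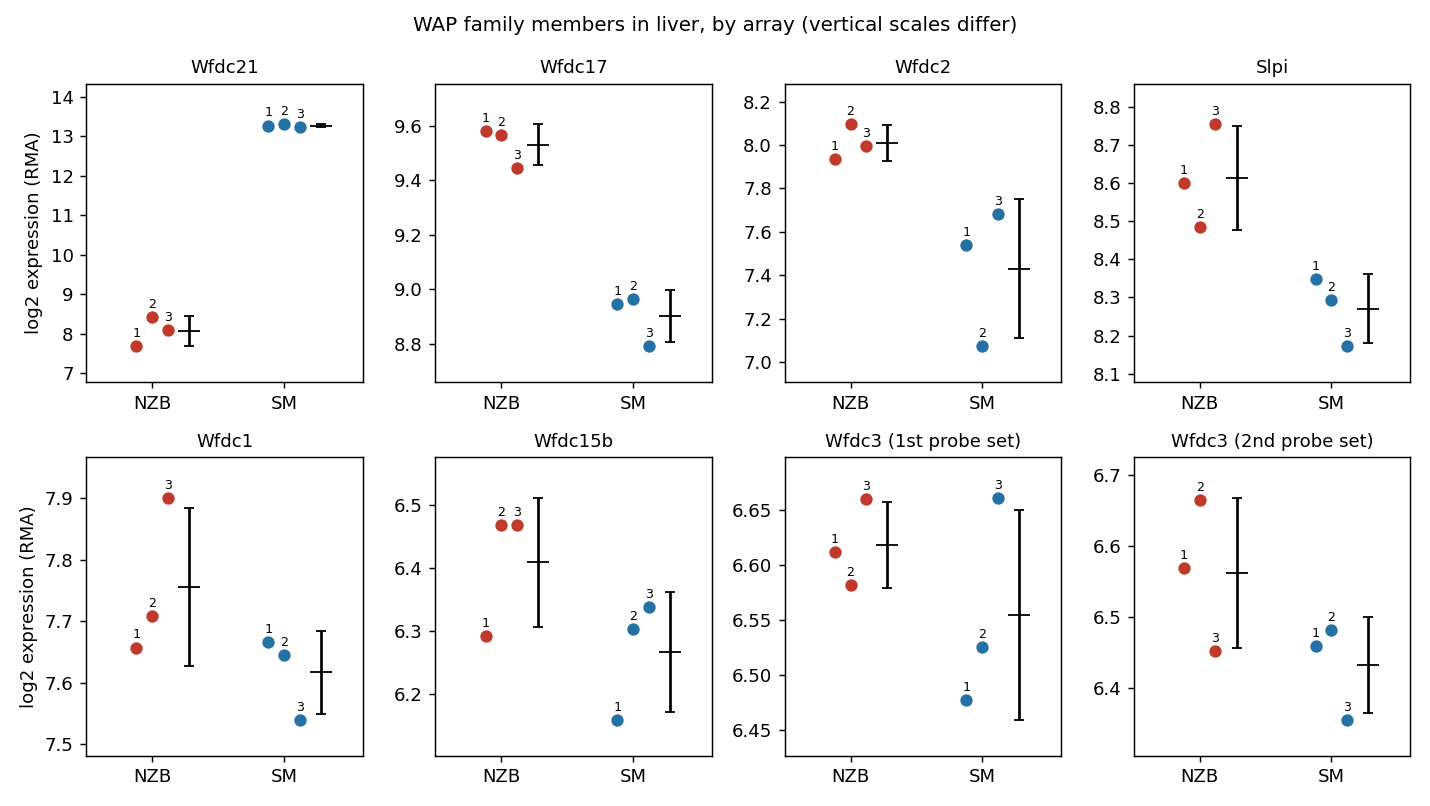
Log2 expression (vertical axis, RMA) of the 8 probe sets of the family, with 1 point per mouse numbered by replicate (NZB red, left; SM blue, right) and the mean with its SD as a bar beside each group. Wfdc21 is at 7.69 to 8.44 in NZB against 13.22 to 13.31 in SM, whereas Wfdc17, Wfdc2 and Slpi lie wholly higher in NZB, and the strains overlap in Wfdc1, Wfdc15b and both probe sets of Wfdc3.

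The genes whose pattern was most like that of Wfdc21 were picked by Pearson's r across the 6 arrays. These values only describe the likeness, since the arrays share the strain difference that chose Wfdc21. Over 18192 other genes, 69 had r over 0.99 and 55 had r under -0.99. Genes with clone or predicted names are in these counts but were left out of the highest and lowest values named here. The highest values belonged to Angel2, Naa50, Cox19, Akr1c12 and Mief2, with r of 0.999, 0.999, 0.998, 0.998 and 0.997. Among them Akr1c12, an aldo-keto reductase gene, had the next largest strain difference after Wfdc21, at 8.02, 8.29 and 8.31 in NZB against 10.63, 10.59 and 10.44 in SM. Cox19, whose product serves the assembly of cytochrome oxidase, averaged 9.77 in NZB and 10.93 in SM. The most opposite patterns were those of Ppm1m, Nagk and Msn, with r of -0.999, -0.999 and -0.998. Of these, Msn encodes moesin, a linker of the membrane to actin, and averaged 9.65 in NZB and 9.20 in SM. Among the family, the r with Wfdc21 was -0.97 for Wfdc17, -0.88 for Slpi and -0.83 for Wfdc2, and it lay between -0.62 and -0.48 for the others.

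With Wfdc21 set aside, 3 of the 6 other members were called higher in NZB and none was lower. Over all genes tested, 21.0% were called in either direction, 8.47% higher and 12.6% lower. These 6 members were listed with earlier results of these data known, so their share is a description. Of the 17 WFDC domain genes measured, the same 3 members were called higher. Wfdc21 is left out of this count because it was chosen for its difference. The arrays of the strains did not overlap for the same 3 of the 6 genes, where 39.4% of all genes were without overlap. In the fit over all 45037 probe sets, where 14.8% were called, the probe sets of Wfdc17, Wfdc2 and Slpi were called as well. Without NZB replicate 3, only Wfdc17 among the other members was called higher.

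Wfdc17, known in mouse as a product of activated microglia and macrophages that dampens their inflammatory response, had the clearest difference of the tested members. It read 9.58, 9.57 and 9.44 in the NZB livers and 8.95, 8.97 and 8.79 in the SM livers. Every NZB array lay at least 0.48 above every SM array. The means were 9.53 ± 0.08 in NZB and 8.90 ± 0.10 in SM (SD, n = 3 each), so Wfdc17 was 1.55-fold higher in NZB (0.63, SE 0.07, limma adjusted p = 0.000431). Left-out arrays and the other settings kept this call, with adjusted p between 0.000157 and 0.00297.

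Markers of macrophages and Kupffer cells, the resident macrophages of liver, were read beside Wfdc17. The 10 markers measured divided into 7 that were higher in NZB, 1 that was lower and 2 not past the threshold. The share called was 80%, beside 21.0% of all genes, and the median difference was 0.39 against 0.02 over all genes. Cd5l, a secreted scavenger receptor protein, was 1.68-fold higher (0.75, SE 0.09, limma adjusted p = 0.000618), and Adgre1, which encodes the F4/80 antigen, was 1.57-fold higher (0.65, SE 0.07, limma adjusted p = 0.000234). The marker that was lower was the scavenger receptor gene Marco (-0.66, SE 0.14, limma adjusted p = 0.0102). Clec4f, a lectin gene of Kupffer cells, differed by 0.03 (SE 0.09, limma adjusted p = 0.825). The summed level of the 10 markers, on the unlogged intensity scale, was 10455 to 12340.3 in NZB and 7879 to 8841 in SM, and none was at background. Without NZB replicate 2, 4 markers were higher. The part of these cells in the Wfdc17 difference was not tested, and in whole liver more cells of a type and more RNA per cell cannot be told apart.

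Slpi encodes an inhibitor of neutrophil elastase and cathepsin G that is made by epithelia and by phagocytes. It read 8.60, 8.48 and 8.76 in the NZB livers and 8.35, 8.29 and 8.17 in the SM livers. The strains did not overlap, but the gap between the nearest arrays was 0.14, about the SD within NZB. The means were 8.61 ± 0.14 in NZB and 8.27 ± 0.09 in SM (SD, n = 3 each), and Slpi was 1.27-fold higher in NZB (0.34, SE 0.08, limma adjusted p = 0.0178). This call ended without NZB replicate 3 (limma adjusted p = 0.0681) and without SM replicate 2 (limma adjusted p = 0.0538).

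A list of 10 genes around Slpi was read, made up of serine proteases of neutrophils and mast cells, proteins known to bind SLPI, and progranulin with its receptor. Of these, 2 were higher in NZB, 1 was lower and 7 were not past the threshold (30% called, beside 21.0% of all genes). The elastase gene Elane differed by 0.12 (SE 0.07) and the cathepsin G gene Ctsg by 0.03 (SE 0.08), and neither passed. Sort1, which encodes the progranulin receptor sortilin, was 1.29-fold higher (0.36, SE 0.07, limma adjusted p = 0.00688) and Anxa2, which encodes annexin A2, was 1.27-fold higher (0.35, SE 0.09, limma adjusted p = 0.0278). Grn, whose product progranulin is protected by SLPI from cleavage by elastase, was 1.20-fold lower (-0.26, SE 0.08, limma adjusted p = 0.0369). The number of these genes called higher was 1 without SM replicate 2 or 3 or without NZB replicate 1, 2 or 3, and 1 also with array medians aligned or with the mean of a gene's probe sets. The call of Grn ended without SM replicate 2 or 3, without NZB replicate 2 or 3, after quantile normalization, with all probe sets tested and with the replicate number as a block.

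Limma called 3 of 10 neutrophil markers higher in NZB and none lower, where 21.0% of all genes were called, 8.47% higher. At an unadjusted p under 0.05 in limma were 4 of the 10, as were 34.5% of all genes. S100a8 and S100a9, which encode the subunits of calprotectin, were 2.00-fold higher (1.00, SE 0.19, limma adjusted p = 0.00571) and 1.43-fold higher (0.51, SE 0.08, limma adjusted p = 0.00226). S100a8 read 6.45, 7.39 and 6.81 in NZB, and 5.78, 5.97 and 5.89 in SM, close to the background level of 5.67. The third was the granule protein gene Ngp, at 0.39 (SE 0.06, limma adjusted p = 0.00312). The myeloperoxidase gene Mpo differed by 0.02 (SE 0.06). The summed level of the neutrophil markers was 1430 to 1575 in NZB and 1216 to 1269 in SM. The highest reading of each marker lay above 5.67, but only 2833 of the 18193 genes tested stayed at or under that level. The background of these probe sets themselves was not measured, so how much of the readings is signal is not shown. The part of neutrophils in the Slpi difference was not tested.

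Wfdc2, a secreted WAP protein of airway and reproductive epithelia that serves as a serum marker of ovarian cancer in human, read 7.94, 8.10 and 8.00 in the NZB livers. In the SM livers it read 7.54, 7.07 and 7.68, and the low reading was that of SM replicate 2. The strains did not overlap, with a gap of 0.25. The means were 8.01 ± 0.08 in NZB and 7.43 ± 0.32 in SM (SD, n = 3 each), and Wfdc2 was 1.49-fold higher in NZB (0.58, SE 0.14, limma adjusted p = 0.0158). Without SM replicate 2 the difference was 0.40 (SE 0.08) and the call stayed (limma adjusted p = 0.0180). The call ended without NZB replicate 2 (limma adjusted p = 0.0557) and without NZB replicate 3 (limma adjusted p = 0.0539).

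Since epithelial and lining cells are known sources of Wfdc2 and Slpi, markers of cholangiocytes, the epithelial cells of bile ducts, and of the mesothelium were read beside them. Among 8 cholangiocyte markers limma called 0 (2 at an unadjusted p under 0.05), and among 6 mesothelial markers it called 0 (0 at an unadjusted p under 0.05). The median differences were 0.001 and -0.002, and that of the cholangiocyte markers was -0.10 without probe sets marked for cross-hybridization. Of the cholangiocyte markers Krt7 and Cftr lay at or under background on all arrays, as did Gpm6a and Lrrn4 of the mesothelial ones. The summed levels were 1159 to 1226 in NZB and 1114 to 1205 in SM for cholangiocytes, and 643 to 654 in NZB and 620 to 635 in SM for the mesothelium. With the replicate number as a block, without SM replicate 2 or without NZB replicate 1, limma called 1 cholangiocyte marker lower. With the mean of a gene's probe sets it called 1 mesothelial marker lower.

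**Figure D2:**
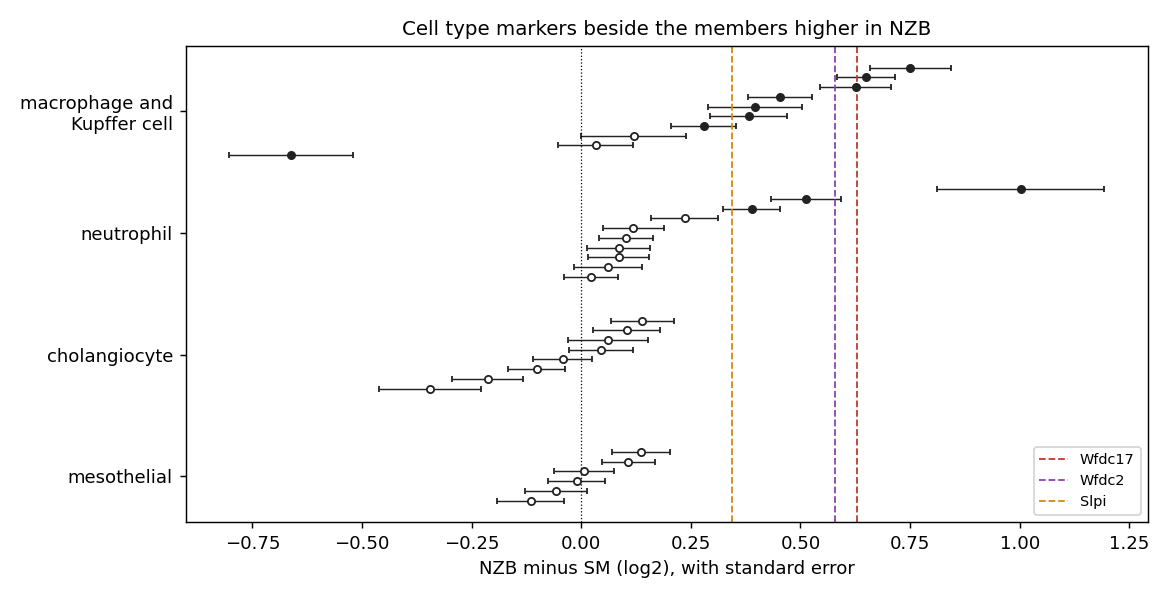
NZB minus SM difference (horizontal axis, log2, with its standard error) of each marker measured, 1 point per gene, for macrophages and Kupffer cells, neutrophils, cholangiocytes and mesothelium. Filled points passed limma's threshold, and dashed lines give the differences of Wfdc17 (0.63), Wfdc2 (0.58) and Slpi (0.34). The macrophage points lie mostly right of 0, with Marco far left, and the cholangiocyte and mesothelial points lie on both sides of 0.

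The remaining 3 members did not pass the test. Wfdc15b, a protein with a single WAP motif and antibacterial activity in mouse, read 6.29, 6.47 and 6.47 in NZB and 6.16, 6.30 and 6.34 in SM. The strains overlapped, and the difference was 0.14 (95% interval -0.03 to 0.32, limma adjusted p = 0.224). Wfdc1, first described in rat as a growth inhibitor of prostate stroma, read 7.66, 7.71 and 7.90 in NZB and 7.67, 7.65 and 7.54 in SM. Its difference was also 0.14 (95% interval -0.04 to 0.31, limma adjusted p = 0.245), and 2 of its 3 NZB arrays lay above all SM arrays.

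Wfdc3 is read by 2 probe sets. The brighter one, which stands for the gene, read 6.61, 6.58 and 6.66 in NZB and 6.48, 6.53 and 6.66 in SM, a difference of 0.06 (95% interval -0.09 to 0.22, limma adjusted p = 0.551). The other read 6.57, 6.66 and 6.45 in NZB and 6.46, 6.48 and 6.35 in SM, a difference of 0.13 (SE 0.07, limma adjusted p over all probe sets = 0.284). In both probe sets the strains overlapped. These intervals leave room for differences of up to 0.32 in Wfdc15b and 0.31 in Wfdc1, close in size to that of Slpi.

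Since Wfdc1 is known from stromal cells, the stellate cell and fibroblast markers were read beside it, and limma called 0 of 10 (5 at an unadjusted p under 0.05, beside 34.5% of all genes). Their median difference was -0.05, and it was 0.09 without NZB replicate 2. With array weights or without SM replicate 1, 3 of them were higher, and without NZB replicate 1, 2 were lower. Of 6 smooth muscle markers limma called 0 (0 at an unadjusted p under 0.05), with Cnn1 and Actg2 at or under background on all arrays.

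The wider set of WFDC domain genes was taken from a list of 24 names, of which 17 had their own probe set, and the other 7 were not analysed here. With Wfdc21 set aside, the genes that passed were the 3 members already given, all higher in NZB, beside the 8.47% of all genes that were called higher. The 10 genes outside the 7 members differed by between -0.10 in Wfikkn1 and 0.18 in Eppin, an inhibitor made in the male reproductive tract. Wap itself, the whey protein of mouse milk, read 6.39, 6.46 and 6.55 in NZB and 6.27, 6.32 and 6.38 in SM, a difference of 0.14 (SE 0.07, limma adjusted p = 0.167). The differences of Wfdc12 (0.18), Wfdc6a (0.17), Wfdc5 (0.16), Wfikkn2 (0.11), Wfdc18 (0.06), Papln (-0.05) and Wfdc15a (-0.07) complete the set. Of the 17 genes 13 had a positive difference (76.5%), where 55.4% of all genes did, and their median was 0.14 against 0.02 over all genes. With array medians aligned, the medians were 0.11 and -0.01. Some of the 17 genes read close to the background level of 5.67, such as Papln at 5.64 to 5.84 and Wfdc5 at 5.74 to 5.96. Wfdc21 was the member with a difference of over 2-fold, and the next in size, Wfdc17, was 1.55-fold.

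**Figure D3:**
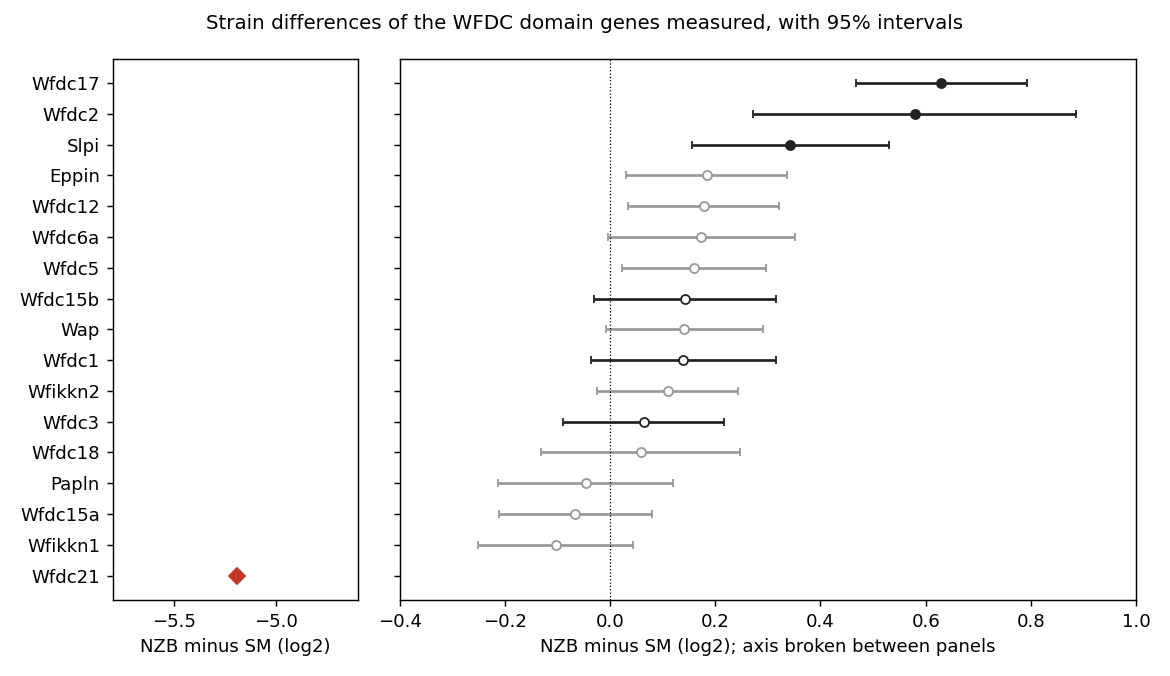
NZB minus SM difference (horizontal axis, log2, broken between the panels) of the 17 WFDC domain genes measured, 1 row per gene. Bars are 95% intervals of the limma fit, filled circles passed its threshold, black marks the members and grey the other genes, and the red diamond is Wfdc21 at -5.19, drawn without an interval because it was chosen for its difference.

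**Figure D4:**
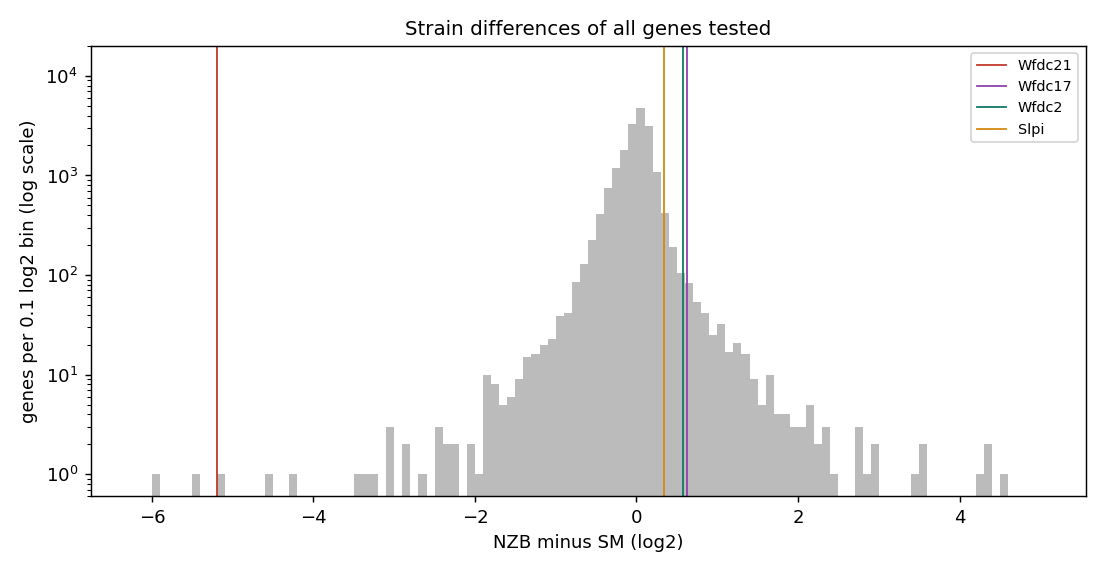
Number of genes (vertical axis, log scale) by NZB minus SM difference (horizontal axis, log2, bins of 0.1) over all 18193 genes tested. Coloured lines mark 4 members. Wfdc21 at -5.19 lies at the far left end, and Wfdc17 (0.63), Wfdc2 (0.58) and Slpi (0.34) lie on the right flank of the main peak.

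The neighbourhood of Wfdc21 on chromosome 11 was read in gene order. Its nearest neighbours tested are Wfdc18 and Heatr6, with no annotated gene between. Wfdc18 read 6.48, 6.61 and 6.59 in NZB and 6.63, 6.33 and 6.55 in SM (0.06, SE 0.08, limma adjusted p = 0.668), and Heatr6 differed by 0.08 (limma adjusted p = 0.414). Wfdc17 lies next to Wfdc18 on the far side. The 3 adjacent family genes thus gave a difference of 0.63 in Wfdc17, 0.06 in Wfdc18 and -5.19 in Wfdc21. The probe set of Wfdc18 is of a kind that can read several transcripts, and reads shared between these related genes were not tested.

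The 16 genes tested around Wfdc21 held 5 that were higher in NZB, 2 that were lower and 9 that did not pass. Of all genes, 8.47% were called higher and 12.6% lower. The median size of the difference was 0.15 around Wfdc21 against 0.12 over all genes. The neighbours with the largest differences, chosen after their values were seen, were Acaca, the acetyl-CoA carboxylase gene (-0.84, SE 0.10, limma adjusted p = 0.000628), and the chemokine gene Ccl9 (0.83, SE 0.10, limma adjusted p = 0.000665). The chemokine genes Ccl5 and Ccl6 were higher by 0.34 and 0.30, whereas Ccl4, the gene tested next to Wfdc17, differed by 0.06 and did not pass.

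On chromosome 2, Wfdc15b, Slpi and Wfdc2 lie in this order, with Wfdc2 8 places after Slpi among the genes tested. Slpi is flanked by Svs5, a seminal vesicle gene (0.06, SE 0.06, limma adjusted p = 0.532), and by the matrilin gene Matn4 (0.27, SE 0.06, limma adjusted p = 0.0180). Wfdc2 is flanked by Pigt, of the GPI transamidase (0.37, SE 0.11, limma adjusted p = 0.0421), and by Wfdc6a. Between Slpi and Wfdc2 lies Sdc4, the syndecan-4 gene, named here after its value was seen, which was lower in NZB (-1.16, limma adjusted p = 4.9e-05). Wfdc15b is flanked by Wfdc15a and Svs2, Wfdc3 by Spint4 and Dnttip1, and Wfdc1, on chromosome 8, by Kcng4 and Atp2c2, and the differences of these 6 genes lay between -0.12 and 0.14. Over the 64 neighbours of all members, each counted once and members left out, 8 were higher and 6 lower. Over all genes tested, 21.0% were called in either direction, 8.47% higher and 12.6% lower, and the neighbour counts are a description beside these shares. Of these neighbours 4 were higher without SM replicate 1 or NZB replicate 3, and 5 without SM replicate 2 or NZB replicate 2.

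**Figure D5:**
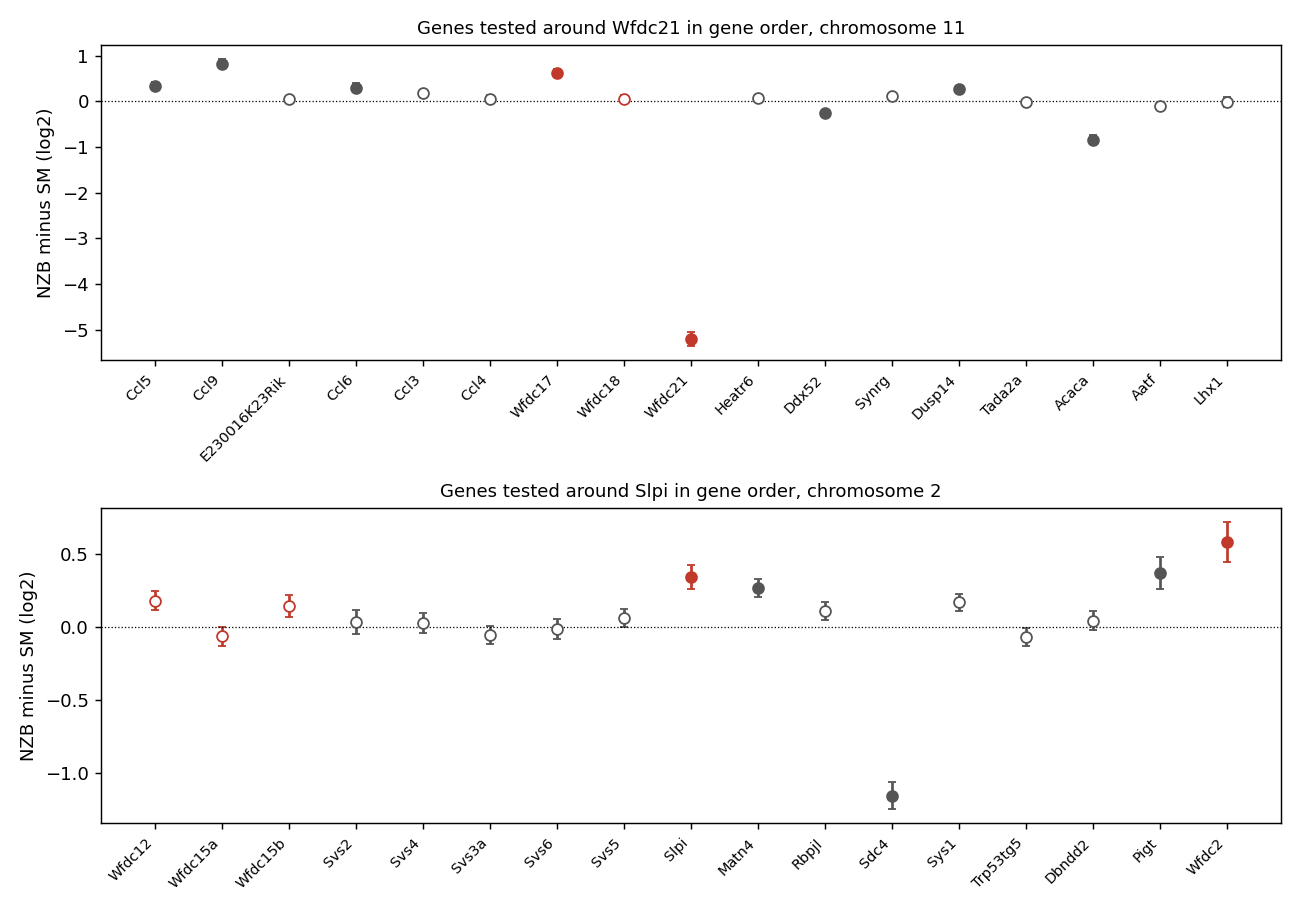
NZB minus SM difference (vertical axis, log2, with its standard error) of the 8 genes tested on either side of Wfdc21 (upper panel, chromosome 11) and of Slpi (lower panel, chromosome 2), in gene order along the horizontal axis with no scale of distance. Family genes are red and filled points other than Wfdc21, which is given without a test, passed limma's threshold. Wfdc21 at -5.19 stands alone in the upper panel, whose other genes lie between -0.84 and 0.83.

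Members of this family are known to follow inflammatory signals, so 25 genes of the acute phase and of IL-6 or NF-kB signalling were read beside them. Those called higher in NZB numbered 8, those called lower 3 and the rest 14, with a median difference of 0.16. The share called was 44%, beside 21.0% of all genes. Orm1 and Orm2, which encode the acute phase protein orosomucoid, were 7.68-fold higher (2.94, SE 0.34, limma adjusted p = 0.000419) and 2.70-fold higher (1.43, SE 0.20, limma adjusted p = 0.00125), and a probe set can read both copies. The genes that were lower were Cebpb, a transcription factor of the acute phase (-1.34, SE 0.13, limma adjusted p = 0.000144), the interleukin-1 receptor gene Il1r1 (-1.02, SE 0.14, limma adjusted p = 0.00113) and Il6ra (-0.91, SE 0.16, limma adjusted p = 0.00393). Lcn2, a secreted iron-scavenging protein of inflammation, read 8.90, 8.43 and 8.56 in NZB and 9.05, 9.05 and 8.76 in SM and did not pass (-0.32, SE 0.13, limma adjusted p = 0.101). The list thus held genes that differed in the direction of Wfdc21 and genes that differed in that of Wfdc17. The number called higher was 5 without SM replicate 2, NZB replicate 2 or NZB replicate 3 and 12 with trended and robust variances or with the mean of a gene's probe sets, and the number called lower was 5 without SM replicate 3 and with array weights.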

How the data were processed

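Liver RNA of 3 NZB and 3 SM mice was measured on 1 single-colour array per mouse. The deposited values come from RMA, per the submitters' processing notes, with version and settings not given in the sources used here. They were read as log2 values because the deposited maximum, 14.9, fits the log2 scale of a 16-bit scanner. RMA compresses differences near background and bright probe sets can saturate. All columns matched a sample. Symbols came from the platform annotation, updated through RefSeq gene IDs (GRCm38.p6). Where several probe sets name one gene and no other, the brightest on average stands for it. NZB was set against SM with limma 3.58.1 (R 4.3.3) over 18193 genes and, for probe sets, over 45037, two-sided, with Benjamini-Hochberg adjustment and 0.05 as the threshold. A positive difference means higher in NZB. With 3 against 3, an exact permutation test cannot go below p = 0.1. The number of arrays limits the precision of every value. The fit was tested on simulated data. Members, the 13 gene lists and the naming rule (every member and WFDC gene, up to 2 genes per direction in each list, the 8 genes most like or unlike Wfdc21, nearest neighbours) were chosen with earlier results of these data known. Replicate numbers are shared between strains, and same-numbered arrays did not deviate together. Further list genes the text names (Il6ra, Ngp, Clec4f, Mpo, Elane, Ctsg, Lcn2, Ccl5, Ccl6, markers at background) were chosen after their values were seen.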

Additional observations from a re-analysis of the deposited data

How the results depend on the processing

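Each result was recomputed under 9 other settings and without each array, 15 alternatives in all, and no member changed direction in any of them. Wfdc21 differed by -5.37 to -4.99 with single arrays left out and by -5.22 to -5.16 under the other settings. Wfdc17 differed by 0.57 to 0.67 with single arrays left out and kept its call throughout. With single arrays left out, Wfdc2 differed by 0.40 to 0.71 (limma adjusted p = 0.00530 to 0.0557) and Slpi by 0.27 to 0.41 (limma adjusted p = 0.0147 to 0.0681). The calls of Wfdc2 and Slpi held under all 9 other settings, with adjusted p of at most 0.0246 and 0.0373. Wfdc1, Wfdc15b and Wfdc3 passed under none of the alternatives. Members called higher numbered 1 to 3 with single arrays left out. Over all genes, 867 to 1443 were called higher and 1480 to 2413 lower with single arrays left out, against 1541 and 2286 with all arrays. Same-numbered arrays of the strains had residual correlations of 0.04, -0.07 and 0.05 across genes, and with the replicate number as a block (adjusted p of Wfdc17 = 0.000994, Wfdc2 = 0.0246, Slpi = 0.0373) the member calls were the same. The causes of these changes were not tested.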

Other observations

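Markers of B and plasma cells, which the report does not set beside a member, were higher in NZB for 5 of 7 genes measured, with none lower. The share called was 71.4%, beside 21.0% of all genes. Ighm and Jchain, for the IgM heavy chain and the chain that joins IgM, were higher by 4.35 (SE 0.21, limma adjusted p = 3.4e-06) and 4.28 (SE 0.30, limma adjusted p = 2.3e-05). Of the 3 Y-linked genes measured Uty differed by 0.25 (SE 0.07, limma adjusted p = 0.0297). Its readings could not lie above the background level of 5.67, which is the highest reading of the Y-linked probe sets, its own included.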
